A study of Rattus norvegicus with 6 samples.

Results

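Expression of 4 extracellular matrix genes was examined in injured rat facial nerve: Col1a1 (ENSRNOG00000003897), Col1a2 (ENSRNOG00000011292), Col3a1 (ENSRNOG00000003357) and Fn1 (ENSRNOG00000014288). They were chosen by gene ID as the type I and type III fibrillar collagen genes and the fibronectin gene, and they are 4 of the 30562 IDs in the count table. All 4 passed the filter on low counts, with 37940 to 1038617 counts per library, among 15581 genes tested. The names come with the IDs in the rule that chose the genes. The deposited files hold no gene names, so neither these names nor the labelled tissue could be checked against marker genes here.

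Both groups were wild-type rats (Rattus norvegicus) with facial nerve injury, and nerve tissue was taken on day 14 after injury. The FNI group (3 libraries) is the injury model alone, and the C-Gel-light group (3 libraries) is injured nerve that also received C-Gel-light, which the series title ties to a light-responsive, oxygen-generating Chlorella hydrogel. Strain, sex, age, and the kind of nerve injury are not given in the sources used here. Uninjured nerve and the gel without light were not analysed here. A difference between the groups therefore cannot be assigned to the gel, the algae or the light. Each library has its own batch label, 1 to 3 with C-Gel-light and 4 to 6 in FNI, so batch and treatment cannot be told apart if that label marks a batch. Nothing in the labels says that the libraries are separate animals, so the spread that the p-values rest on may be technical.

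Fibrillar collagens are the rope-like proteins that give connective tissue its tensile strength. Type I collagen is a triple helix of alpha 1 and alpha 2 chains, encoded by Col1a1 and Col1a2, and type III collagen is a triple helix of alpha 1 chains encoded by Col3a1. Fibronectin is a large adhesive glycoprotein that binds integrins and collagen and forms an early matrix onto which collagen is laid. In peripheral nerve the collagens are made largely by fibroblasts of the epineurium and endoneurium, and after injury they build up in the scar as well as in the sheaths that surround regrowing axons. Type III collagen and fibronectin are typical of early repair tissue, and type I collagen of more mature scar.

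Of the 4 genes, only Col1a2 had an entry in the table of RefSeq promoters, and it is shown for that reason. Its levels in the 6 libraries played no part in that choice. The window holds 250 bases before and 50 bases after the annotated start on GRCr8, chr4:33518307-33518606, plus strand. Capitals mark a CCAAT motif on the reverse strand (printed as ATTGG) and a TATAAA motif on the forward strand, the only matches to these 2 motifs on either strand, which do not overlap each other.

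Col1a2: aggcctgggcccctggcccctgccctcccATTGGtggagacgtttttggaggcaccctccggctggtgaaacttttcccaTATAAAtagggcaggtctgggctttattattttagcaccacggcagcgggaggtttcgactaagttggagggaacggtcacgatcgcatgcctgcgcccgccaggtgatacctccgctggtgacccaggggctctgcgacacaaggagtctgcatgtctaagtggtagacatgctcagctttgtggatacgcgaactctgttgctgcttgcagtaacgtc

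The first motif begins at base 30 of the window and the other at base 81, at -221 and -170 from the annotated start. Of 33469 promoter windows of the same length in the table, 37.5% hold the first on either strand and 14.2% hold the other. The first is the box known to bind the factor NF-Y, and the other is the core of the box that places the start of transcription in many tissue-restricted genes. The bases from the annotated start onward begin with ATG, the letters of a start codon, so that start may not be where transcription begins. The matches are a description of the letters. Neither binding nor the place where transcription begins was measured.

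None of the 4 genes passed the test between groups, while 14.8% of all tested genes did (edgeR quasi-likelihood test, adjusted p under 0.05). The type I collagen genes had the largest fitted differences, with Col1a1 2.63-fold and Col1a2 2.44-fold higher on average with C-Gel-light. Col3a1 was 1.84-fold higher on average, and Fn1 was 1.12-fold higher, a difference smaller than its spread between libraries. In every one of the 4 genes the libraries of the groups overlapped, that is, 0 of 4 were separated, against 39.1% of the tested genes whose groups did not overlap. Levels are given as CPM, the count scaled to library size with TMM factors, which adjust for differences in library composition. In bulk tissue fewer cells of a type and less RNA per cell cannot be told apart.

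Col1a1, the alpha 1 chain of type I collagen, had 41372, 12727 and 27591 CPM in the 3 C-Gel-light libraries, in replicate order, and 10654, 14163 and 6219 CPM in the 3 FNI libraries, an order used throughout. C-Gel-light replicates 1 and 3 lay above every FNI library, whereas C-Gel-light replicate 2 lay below FNI replicate 2. The group means were 27230 ± 14326 CPM and 10346 ± 3981 CPM (SD, n = 3 per group). The log2 fold change was 1.40 (SE 0.49, 95% interval 0.25 to 2.55), with an unadjusted p of 0.024 and an adjusted p of 0.097 by edgeR. Within the C-Gel-light group alone the highest library held 3.25 times the CPM of the lowest. This is larger than the 2.63-fold difference fitted between the groups, but it compares single libraries and not group levels.

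Col1a2, the alpha 2 chain of the same protein, followed the same order of libraries as Col1a1. It had 24321, 8791 and 16112 CPM with C-Gel-light and 6625, 9030 and 4542 CPM in FNI. Again only C-Gel-light replicate 2 fell within the FNI range, just below FNI replicate 2. The means were 16408 ± 7769 and 6732 ± 2246 CPM (SD, n = 3), and the log2 fold change was 1.29 (SE 0.42, 95% interval 0.29 to 2.28, adjusted p = 0.084 by edgeR).

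Col3a1, the chain of type III collagen, had 27534, 10716 and 18077 CPM with C-Gel-light and 11053, 12740 and 6774 CPM in FNI. C-Gel-light replicate 2 lay below both FNI replicates 1 and 2, so the groups overlapped more than for either type I gene. The means were 18776 ± 8430 and 10189 ± 3076 CPM (SD, n = 3), and the log2 fold change was 0.88 (SE 0.40, 95% interval -0.06 to 1.82, adjusted p = 0.18 by edgeR).

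Fn1, the fibronectin gene, had 3500, 1653 and 1542 CPM with C-Gel-light and 2270, 2008 and 1717 CPM in FNI. One C-Gel-light library lay above all FNI libraries and the other 2 lay below all of them. The means were 2232 ± 1100 and 1998 ± 277 CPM (SD, n = 3), and the log2 fold change was 0.16 (SE 0.33, 95% interval -0.62 to 0.94, adjusted p = 0.77 by edgeR). The interval runs from 0.65-fold to 1.92-fold, so a rise or fall of moderate size remains within the error. The direction rests on 1 library: without C-Gel-light replicate 1 the log2 fold change was -0.31 (adjusted p = 0.31 by edgeR). With library totals in place of TMM factors it was -0.11, where the median of all tested genes was -0.26, so Fn1 lay 0.15 above that median.

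**Figure D1:**
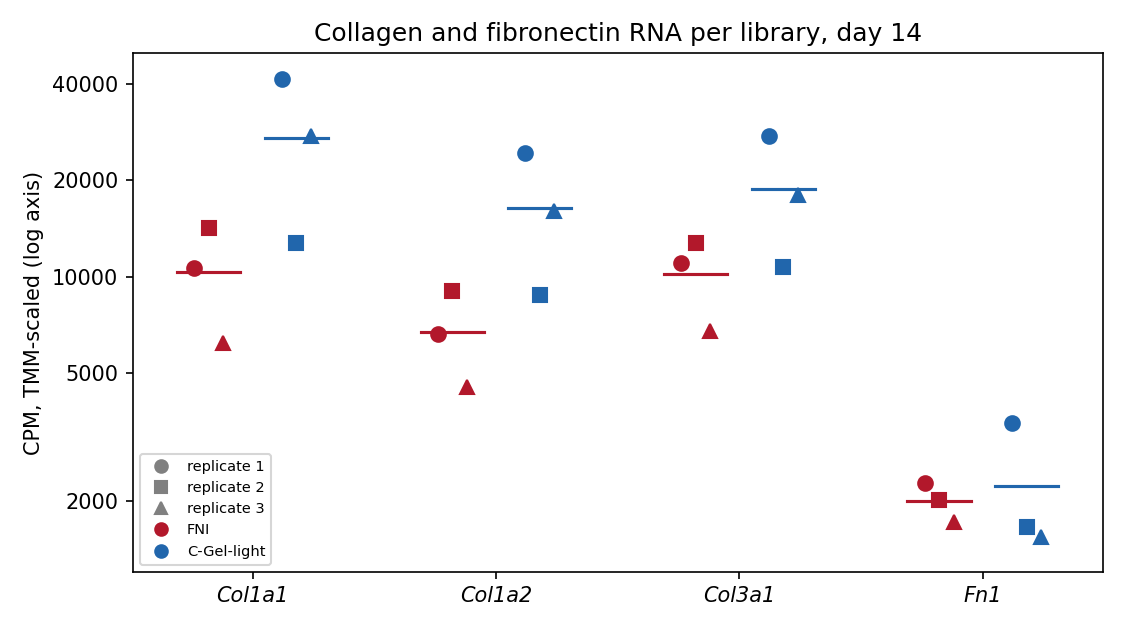
TMM-scaled CPM on a log axis for each gene, with 1 point per library (red FNI, blue C-Gel-light, symbol by replicate number) and a bar at each group's mean. For the 3 collagen genes C-Gel-light replicates 1 and 3 lie above every FNI library and C-Gel-light replicate 2 lies within the FNI range, while for Fn1 only C-Gel-light replicate 1 is above FNI.

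The collagen calls depended on the test. DESeq2 gave an adjusted p of 0.0047 for Col1a1, 0.0031 for Col1a2 and 0.043 for Col3a1, with 23.2% of the genes it tested called, and 0.74 for Fn1. Limma-voom gave 0.1, 0.082, 0.18 and 0.91. Over all 18 alternatives the adjusted p ran from 0.0047 to 0.25 for Col1a1, 0.0031 to 0.23 for Col1a2, 0.043 to 0.41 for Col3a1 and 0.31 to 0.94 for Fn1. By the edgeR test 2 of the 4 genes, Col1a1 and Col1a2, had an unadjusted p under 0.05, a level reached by 32.4% of all tested genes.

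Which library was left out changed the size of the collagen differences. Without C-Gel-light replicate 1 the log2 fold changes of Col1a1, Col1a2 and Col3a1 were 0.97, 0.89 and 0.50, and without C-Gel-light replicate 2 they were 1.74, 1.59 and 1.17. In the latter fit Col1a2 passed the threshold (adjusted p = 0.047 by edgeR), Col1a1 just missed it (0.05 after rounding) and Col3a1 did not pass (0.084). Without each FNI library the adjusted p ran from 0.091 to 0.41 over the 3 collagen genes.

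**Figure D2:**
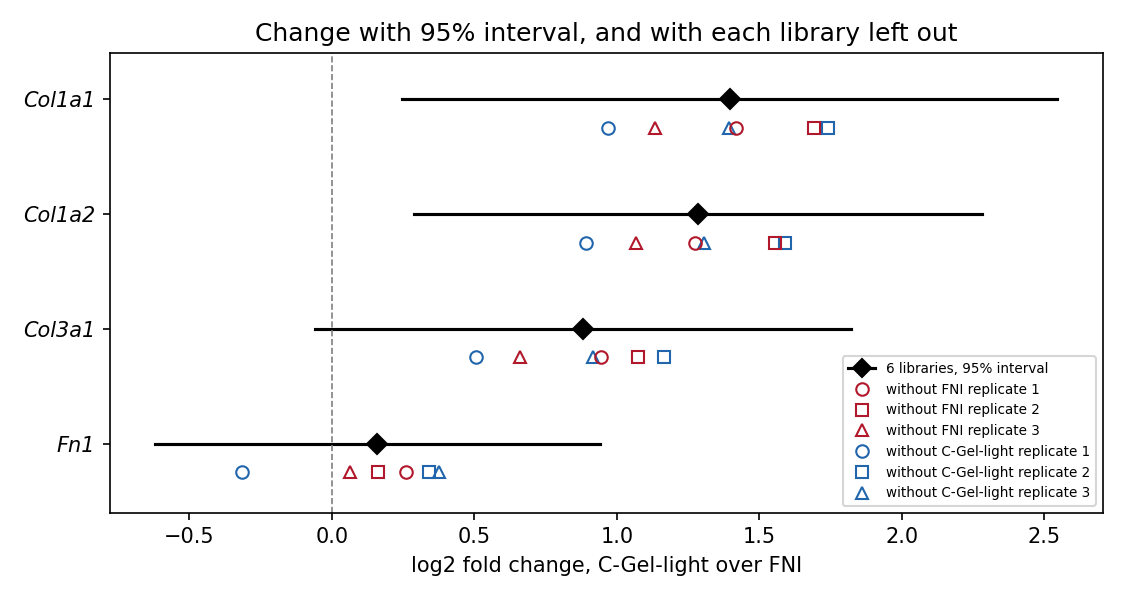
Log2 fold change of C-Gel-light over FNI for each gene (black diamond, line for the 95% interval of the edgeR fit), with open symbols for the fits that leave out 1 library, coloured by its group. The intervals of Col1a1 and Col1a2 lie above 0 before adjustment, those of Col3a1 and Fn1 include 0, and Fn1 turns negative without C-Gel-light replicate 1.

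Set among all genes, the differences of the type I genes were large but so was their spread. The median log2 fold change was -0.01 over the 15581 tested genes and 0.33 over the 100 most abundant genes. Col1a1 had a larger log2 fold change than 97.3% of tested genes and than 89% of the 100 most abundant, and for Fn1 these shares were 66.1% and 38%. Of those 100 genes 27 were called, 22 of them higher with C-Gel-light.

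The libraries of a group differed in collagen RNA more than in most other genes. The log2 CPM of Col1a1 had an SD of 0.86 with C-Gel-light and 0.60 in FNI, against medians of 0.21 and 0.17 over all tested genes. This SD was above that of 95.4% of tested genes with C-Gel-light and 90.3% in FNI. For Col3a1 the SD was 0.68 and 0.48, above 91.7% and 85.1% of genes. Fn1 was different in the groups: its SD was 0.66 with C-Gel-light, above 90.9% of genes, but 0.20 in FNI, above 58.2%. No test compared the spread of the groups.

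The 3 collagen genes were high and low in the same libraries. Relative to the mean of its group on the log2 scale, C-Gel-light replicate 1 stood at 0.76 for Col1a1, 0.69 for Col1a2 and 0.66 for Col3a1, and C-Gel-light replicate 2 at -0.94, -0.78 and -0.71. FNI replicate 2 stood at 0.53, 0.48 and 0.37, and FNI replicate 3 at -0.65, -0.51 and -0.54. Fn1 shared the high value of C-Gel-light replicate 1, at 0.75, but was at -0.33 and -0.43 in replicates 2 and 3.

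Likeness was measured as the root mean square difference between centred log2 CPM profiles over the 6 libraries, for genes whose log2 CPM averaged 1 or more. Col1a2 was the closest of 13037 genes to Col1a1, at 0.12, and Col1a1 the closest to Col1a2. Col3a1 ranked 14 from Col1a1, at 0.28, and 9 from Col1a2, at 0.21. Seen from Col3a1, Col1a2 ranked 30 and Col1a1 ranked 101. Fn1 ranked 2192 from Col1a1, at 0.77. Seen from Fn1, however, Col3a1 ranked 8232, Col1a2 ranked 11570 and Col1a1 ranked 12048. The gene closest to Col3a1 was ENSRNOG00000026604, at 0.10, and the gene closest to Fn1 was ENSRNOG00000046254, at 0.11. Neither passed the test between groups (adjusted p = 0.18 and 0.73 by edgeR). These ranks describe 6 libraries, and they include the difference between the groups as well as the spread within them.

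Levels of different genes were compared per gene length, as the FPKM values deposited by the authors. The lengths behind these values were 5825 bases for Col1a1, 4687 for Col1a2, 4787 for Col3a1 and 8332 for Fn1. Col1a1 had 4258 ± 2116 FPKM with C-Gel-light against 1919 ± 675 in FNI, and Col3a1 had 3570 ± 1484 against 2304 ± 619 (SD, n = 3). Col1a2 had 3187 ± 1409 and 1554 ± 463 FPKM, and Fn1 had 242 ± 106 and 261 ± 31 FPKM. These FPKM are scaled by column totals without TMM factors, so their group differences are not those fitted from CPM. With library totals the median log2 fold change of all tested genes was -0.26. In order of mean FPKM, neighbouring collagen genes within a group lay less than 1 SD apart. Within each library, however, Col1a1 and Col3a1 were above Col1a2 in 6 of 6, and Fn1 was lowest in 6 of 6.

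The order of the type I and type III genes per length was not the same in the groups. Col3a1 exceeded Col1a1 in 3 of 3 FNI libraries and in 1 of 3 C-Gel-light libraries. For Col3a1 to Col1a1 the FPKM ratios were 0.81, 1.02 and 0.80 with C-Gel-light and 1.26, 1.09 and 1.33 in FNI. Every C-Gel-light library had a lower ratio than every FNI library. The means were 0.88 ± 0.13 and 1.23 ± 0.12 (SD, n = 3), a log2 difference of -0.49, with a two-sided exact permutation p of 0.1 (0.15 adjusted over the 3 ratios tested). A p of 0.1 is the smallest that this permutation test allows with 3 against 3 libraries, so the test cannot pass 0.05 here.

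The ratio of Col3a1 to Col1a2, the other type I gene, was likewise separated, at 1.11, 1.19 and 1.10 with C-Gel-light and 1.63, 1.38 and 1.46 in FNI. It was not among the ratios tested. The ratios of the type I genes to each other, Col1a1 to Col1a2, were 1.37, 1.16 and 1.38 with C-Gel-light and 1.29, 1.26 and 1.10 in FNI. The groups overlapped, with means of 1.30 ± 0.12 and 1.22 ± 0.10 (SD, n = 3; exact permutation p = 0.5, adjusted 0.5).

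Fn1 was a smaller fraction of Col1a1 in all 3 C-Gel-light libraries than in each FNI library. Its ratios to Col1a1 FPKM were 0.059, 0.091 and 0.039 with C-Gel-light and 0.149, 0.099 and 0.193 in FNI. C-Gel-light replicate 2 and FNI replicate 2 were the nearest of the 2 groups. The means were 0.063 ± 0.026 and 0.147 ± 0.047 (SD, n = 3), a log2 difference of -1.25 with an exact permutation p of 0.1 (adjusted 0.15), again the smallest possible.

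These lower ratios have to be read against the other genes. A ratio to Col1a1 that was lower in every C-Gel-light library than in every FNI library was found for 34.6% of the other 15580 tested genes, and for 18.2% of the other 99 most abundant genes. Of the other 3 matrix genes, Col3a1 and Fn1 had such a ratio and Col1a2 did not. For ratios to Col1a2 the share of all genes was 44.7%. A lower ratio to a type I collagen gene was thus common among genes in these libraries.

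**Figure D3:**
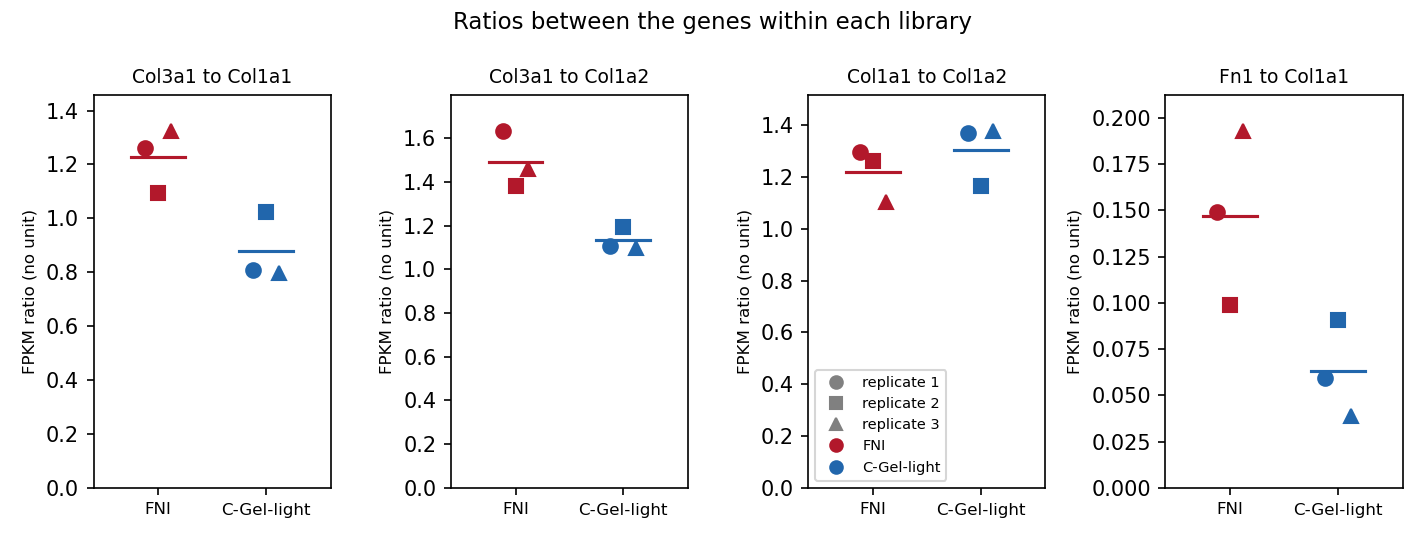
Ratios of FPKM within each library (red FNI, blue C-Gel-light, symbol by replicate number, bar at the mean), each axis starting at 0. The ratios of Col3a1 to Col1a1, Col3a1 to Col1a2 and Fn1 to Col1a1 are lower in all 3 C-Gel-light libraries than in each FNI library, and the ratio of Col1a1 to Col1a2 overlaps.

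Collagen RNA took up a large part of the libraries. Col1a1 ranked 2, 5 and 2 among all genes by count with C-Gel-light and 5, 4 and 7 in FNI. The 3 collagen genes together held 8.07%, 2.91% and 6.07% of all counts with C-Gel-light and 3.07%, 3.78% and 2.00% in FNI. C-Gel-light replicate 2 was thus below FNI replicates 1 and 2. The means were 5.68% ± 2.60 and 2.95% ± 0.90 (SD, n = 3). Fn1 held 0.303%, 0.149% and 0.151% with C-Gel-light and 0.246%, 0.211% and 0.196% in FNI.

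All 3 collagen genes were among the 10 most abundant genes in each library other than FNI replicate 3, where Col1a2 ranked 12. The 10 most abundant genes held 6.27 percentage points more of the counts with C-Gel-light than in FNI. Collagen genes among them made up 2.91 points of this and the other genes 3.37 points. The 10 genes were taken anew in each library, so Col1a2 was not counted in FNI replicate 3. Over the same 3 collagen genes in every library the difference was 2.73 points. The collagen part of the 10 most abundant genes moved with the library left out. That part was 1.71 points without C-Gel-light replicate 1, and 2.26 to 4.29 points without each other library. Total counts were 22957382 to 28997855 per library. The 95% Wilson interval of each gene's share was at most 0.0068 percentage points to either side. Most libraries differed by far more than this, but the intervals of the Fn1 shares of C-Gel-light replicates 2 and 3 overlapped, as did those of the Col1a1 shares of C-Gel-light replicate 2 and FNI replicate 1. Such intervals cover counting error only.

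**Figure D4:**
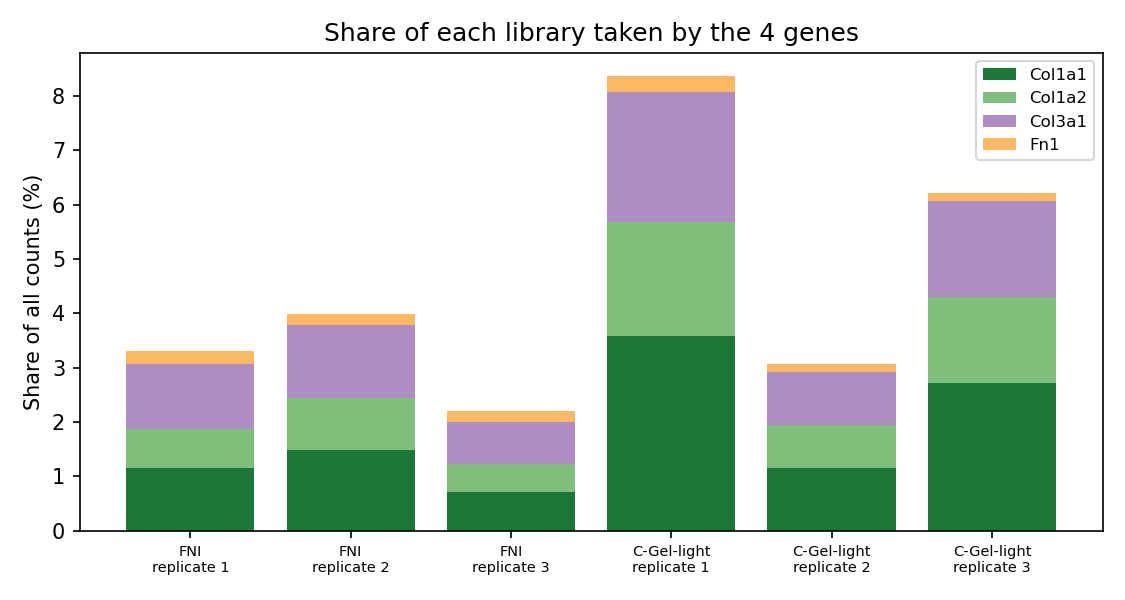
Share of all counts in each library, in percent, stacked by gene, from the raw counts without TMM factors. C-Gel-light replicates 1 and 3 stand highest, with collagen shares of 8.07% and 6.07%, while C-Gel-light replicate 2, at 2.91%, lies among the FNI libraries.

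Scaling by library totals in place of TMM factors shifted the genes as a whole, to a median log2 fold change of -0.26. The values were then 1.15 for Col1a1, 1.04 for Col1a2, 0.63 for Col3a1 and -0.11 for Fn1, with adjusted p of 0.088, 0.074, 0.2 and 0.79 by edgeR. Relative to that median the values were 1.41, 1.30, 0.89 and 0.15, and with TMM factors Fn1 lay 0.17 above the median. The ratios between these genes are taken within a library, so no scaling of libraries enters them.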

How the data were processed

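RNA was sequenced from poly(A)-enriched libraries of rat facial nerve tissue, 3 per group, grouped by the treatment labels and numbered by the sample titles. The authors deposited raw counts (whole numbers per Ensembl gene ID) and, for each library, FPKM values. STAR 2.4.2a, fastp 0.22.0, FastQC 0.11.9, edgeR 3.28.1, RSEM 1.2.29 and the build mRatBN7.2 are named, without roles, per the submitters' processing notes. If RSEM made the counts, they are rounded estimates. The deposited FPKM equals the count divided by the column total and a gene length.

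Counts were compared over all genes with edgeR 4.0.16 in R 4.3.3 (filterByExpr at a minimum count of 10, TMM factors, robust quasi-likelihood F test, group as the only term, two-sided, Benjamini-Hochberg adjusted p under 0.05). The 95% intervals use the SE, taken as the log2 fold change over the square root of F. Log2 CPM used a prior count of 2. Log2 ratios of FPKM were tested with two-sided exact permutation of the libraries. The scripts were tested on simulated data. No pair of libraries of a group agreed within counting noise (chi-square per degree of freedom 27.0 or more).

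The genes, ratios and lists were chosen with earlier results of these data known. The rule for named genes took all 4 genes whatever their values, and the 2 genes most like each, of which 2 IDs are printed. None of the 30562 IDs matched the RefSeq gene table, so the lists of other collagens, collagen processing, receptors, TGF-beta genes and cell type markers, which were set by symbol, were not used. Alternatives were DESeq2 1.42.0, limma 3.58.1 (voom, and a trend on log2 FPKM), other factors and filters, dispersions without robust estimation, a block for the replicate number, leaving out each library and, added after seeing the data, TMM factors without the 4 genes and the collagen part of the most abundant genes without each library. Promoter sequence is from RefSeq (GRCr8), a build other than that of the counts.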

Additional observations from a re-analysis of the deposited data

How the results depend on the processing

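The log2 fold changes of Col1a1, Col1a2 and Col3a1 were positive in 18 of 18 alternatives each, from 0.97 to 1.74, 0.89 to 1.59 and 0.50 to 1.17, and those of Fn1 in 14 of 18. DESeq2 called the 3 collagen genes, at 1.41, 1.30 and 0.90, and gave 3618 changed genes against 2301. Fn1 was -0.11 with library totals, and -0.19 by limma on both log2(FPKM + 1) and log2(FPKM + 0.1), which gave 3937, 3752 and 3833 changed genes (645, 618 and 626 higher). These fits are scaled by column totals, and their medians over all tested genes were -0.26, -0.20 and -0.26. Relative to those medians Fn1 was 0.15, 0.01 and 0.07. Its remaining change of sign, without C-Gel-light replicate 1, was in a fit with TMM factors. There Fn1 was -0.31 relative to the median. What made the signs change was not tested. Leaving out 1 library gave 797 to 1726 changed genes, 0.97 to 1.74 for Col1a1, 0.89 to 1.59 for Col1a2, 0.50 to 1.17 for Col3a1 and -0.31 to 0.38 for Fn1. Col1a2 was then called only without C-Gel-light replicate 2. Each of these fits gave fewer changed genes than the 2301 with all libraries. The cause of this and of the other shifts was not tested. A replicate block gave 1999 changed genes, with 1.35, 1.24, 0.84 and 0.06 for Col1a1, Col1a2, Col3a1 and Fn1, and changed none of their calls. Same-numbered libraries showed no shared deviation (correlations across genes -0.06, 0.03 and 0.09). TMM factors without the 4 genes, chosen after seeing the data, gave 2302 changed genes and 1.40 for Col1a1. With a library left out, the log2 differences of the ratios were -0.61 to -0.43 for Col3a1 to Col1a1, 0.02 to 0.18 for Col1a1 to Col1a2 and -1.56 to -0.95 for Fn1 to Col1a1. Signs of the first and last were fixed, since those groups do not overlap. Counts of these genes were at least 37940 per library, and no comparison of other limits was made.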
